A study of Mus musculus with 479 samples.

Results

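The ventricular sarcomere genes described here are 10 genes that encode parts of the contractile unit of heart muscle: Myh6, Myh7, Myl2, Myl3 and Mybpc3 of the thick filament, Actc1, Tnnt2 and Tnni3 of the thin filament, and Ttn and Ldb3, which tie the filaments to the Z disc. They were chosen by name, with earlier results of these data known, and all 10 were found among the 24475 genes of the tables. RNA was sequenced from heart, lung, kidney and liver of mice with 1 copy of either of 2 genes, Dchs1 or Fat4 (Het), and from their wild-type littermates (WT), giving 479 libraries. All mice were on the C57BL/6NTac background, and the mutant lines were made with VelociGene technology. The heart and lung comparisons used 30 Het and 30 WT libraries in each line. The labels state no age, sex or batch, nor whether each library is a mouse of its own, so every p-value measures the spread between these libraries only. Each WT group holds littermates of its own line.

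A sarcomere shortens when myosin heads on the thick filament pull on actin. Calcium binding to the troponin complex on the thin filament starts each cycle, and titin, the giant protein encoded by Ttn, acts as a spring between the Z disc and the middle of the sarcomere. Adult mouse ventricles use Myh6 as their main myosin heavy chain and Myl2 as their regulatory light chain, whereas atria and the muscle sleeves around pulmonary veins use Myl7 and Myl4. Dchs1 and Fat4 are giant protocadherins that bind each other across cell borders and set tissue polarity. In bulk tissue, fewer cells of a type and less RNA per cell cannot be told apart.

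The promoters of 3 of these genes are shown because they share a CArG box, the motif of serum response factor, an activator of muscle genes. Of 32817 RefSeq promoter windows of 250 bases before a start on GRCm38.p6, 1.47% held a CArG box on either strand, and among the 14 starts of the 10 genes 4 did, in Actc1, Ldb3 and Myl3. The 2 Ldb3 windows overlap and hold the same box. The box began 47 bases before the start in Actc1 and 85 in Myl3. The stretches below run 5′ to 3′ and stop where an annotated exon begins. They lie at chr2:114052888-114053035 (minus strand, Actc1), chr14:34588683-34588841 (minus strand, Ldb3) and chr9:110763518-110763645 (plus strand, Myl3). Capitals mark the CArG box and, in Myl3, also the M-CAT core CATTCC, the motif of TEAD factors.
Actc1: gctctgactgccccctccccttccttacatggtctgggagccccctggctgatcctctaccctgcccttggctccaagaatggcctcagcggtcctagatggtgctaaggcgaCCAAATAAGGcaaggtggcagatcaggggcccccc
Ldb3: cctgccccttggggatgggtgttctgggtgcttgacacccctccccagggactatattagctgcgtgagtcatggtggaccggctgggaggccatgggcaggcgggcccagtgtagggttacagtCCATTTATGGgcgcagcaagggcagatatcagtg
Myl3: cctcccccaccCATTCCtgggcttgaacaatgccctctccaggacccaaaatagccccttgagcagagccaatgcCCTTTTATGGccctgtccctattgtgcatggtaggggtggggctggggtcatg

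Other motifs were searched in the same windows. The M-CAT core CATTCC, on either strand, stood in 4 of the 14 windows, against 12.6% of all windows. The GATA motif AGATAA was in 2 of the 14 and the E box CANNTG in 11, against 9.99% and 66.2% of all windows. A MEF2 site stood in 2 of the 14, those of Mybpc3 and Ttn, against 2.92% of all windows, and the TATA box TATAAA, on the sense strand, in none of the 14, against 7.60%. No motif found in these windows overlapped another. A match says only that these letters are present.

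The heart libraries held 14849694 to 24286107 reads (median 19957180) and the lung libraries 10835124 to 27648661 (median 17563068), as estimated counts per gene. In the Dchs1 heart, Dchs1 fell by 1.10 ± 0.0553 (SE) on the log2 scale, and in the Fat4 heart Fat4 fell by 0.95 ± 0.0584, with no overlap between Het and WT in either. By library number, 24 WT and 24 Het libraries of the Dchs1 heart form 1 run of numbers and the rest 3 shorter runs. What the numbers stand for is not given in the labels. No Dchs1 heart library stood apart from the others by its correlation with them. In the Fat4 heart 1 Het library did, and in the Dchs1 lung 5 libraries (2 WT and 3 Het) did. These 5 all lie in the shorter run of library numbers of the Dchs1 lung, which holds 6 WT and 6 Het libraries. The longer run of that lung holds 24 WT and 24 Het libraries.

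In WT hearts of both lines (60 libraries), the deposited TPM, a level per length of transcript, ordered the genes from Myl2 down to Ttn. Myl2, the regulatory light chain of the ventricle, had a median of 9895 TPM (8681 to 13372), above every value of the next gene, the tropomyosin-binding troponin subunit Tnnt2, at 5156 TPM (4525 to 6368). The main heavy chain Myh6 was at 4287 TPM, the essential light chain Myl3 at 3842, the inhibitory troponin subunit Tnni3 at 3419 and cardiac actin Actc1 at 2746. The ranges of neighbours in this order from Tnnt2 to Actc1 overlapped. Mybpc3, the myosin-binding protein that tunes cross-bridges, was at 652 TPM (469 to 769), below all values of Actc1. Ldb3, the Z disc adaptor also called cypher, was at 358 TPM (292 to 409), below all values of Mybpc3. The slow heavy chain Myh7 was at 141 TPM (41.7 to 313) and Ttn at 71.6 (58.4 to 111), and the ranges of Ldb3 and Myh7, and of Myh7 and Ttn, overlapped. Ttn stood last per length, although by reads its pooled level of 4461 CPM (depth-scaled reads) exceeded the 4339 CPM of Myl2.

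**Figure D1:**
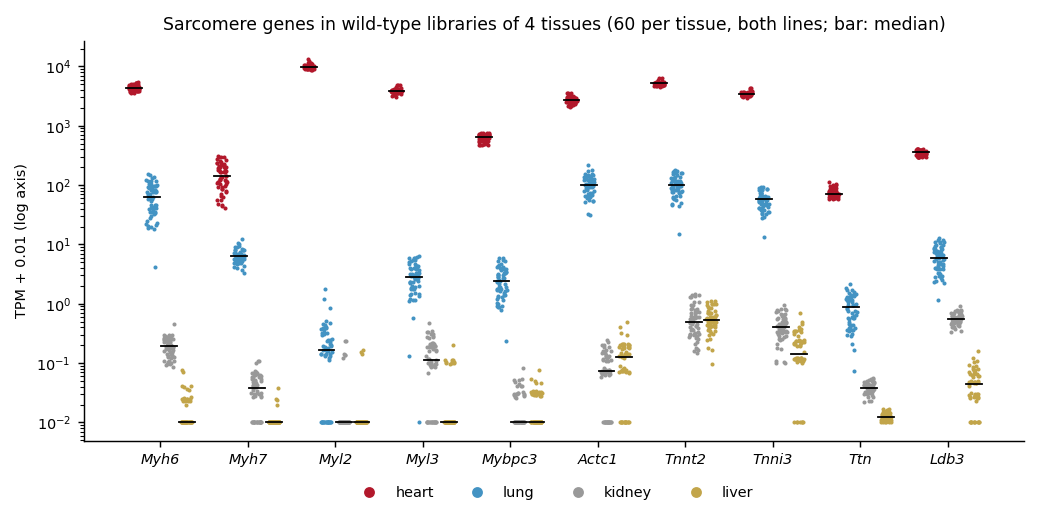
TPM (plus 0.01, log axis) of the 10 genes in the WT libraries of heart, lung, kidney and liver, 60 libraries per tissue from both lines, with a bar at the median. Heart values lie above all lung values for every gene, and the lung values of Myl2 sit at or near 0.

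In the Dchs1 heart, Actc1 and Ldb3 fell most among the 10 genes, to 73.7% and 77.9% of WT. The thick filament genes Myl2, Mybpc3 and Myl3 and the spring gene Ttn fell by less, to between 88.3% and 91.8% of WT. The other 4 genes did not pass the test, and none rose: Myh6, Myh7, Tnnt2 and Tnni3. The 6 lower calls are read against a contrast in which 50.2% of 13304 tested genes were called, 26.1% as higher and 24.1% as lower in Het, by edgeR's quasi-likelihood test with Benjamini-Hochberg adjustment over all genes. The median log2 fold change of the 10 genes was -0.13, against 0.004 over all genes tested. Fold changes and levels in this comparison rest on CPM scaled by TMM, which is called scaled CPM here.

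Actc1 encodes the actin of the cardiac thin filament and lies at chr2:114047282-114052875 (GRCm38.p6). Its scaled CPM was 2114 at the lowest, 2754 at the median and 3658 at the highest of the WT libraries, and 1649, 2106 and 2448 in Het. The groups overlapped in part: 16 Het libraries lay below the lowest WT library and 23 WT libraries above the highest Het library. The log2 fold change was -0.44 ± 0.0472 (adjusted p = 1.46e-11, edgeR), and 30 of 30 Het libraries lay below the WT median. In the longest run of library numbers alone it was -0.45.

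Ldb3, at chr14:34526699-34590314, anchors signalling proteins and alpha-actinin at the Z disc. It had 541, 670.5 and 771 scaled CPM at the lowest, median and highest in WT, and 424, 519 and 662 in Het. Here 22 Het libraries lay below the lowest WT library. The log2 fold change was -0.36 ± 0.0375 (adjusted p = 5.34e-12, edgeR), all 30 of 30 Het libraries lay under the median of WT, and the value was -0.38 in the longest run of library numbers.

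Among the thick filament genes, Myl2 changed most. Its scaled CPM ran 3794, 4439 and 5533 in WT and 3330, 3867 and 5371 in Het, a log2 fold change of -0.18 ± 0.0417 (adjusted p = 0.000269, edgeR), 27 of 30 Het libraries lying under the median of WT. Mybpc3 ran 1389, 1911 and 2344 in WT and 1232, 1715 and 2197 in Het (log2 fold change -0.16 ± 0.0548, adjusted p = 0.0117, 24 of 30 below). These ranges overlap over most of their width. Myl3 ran 2104, 2415 and 2813 in WT and 1663, 2230 and 2637 in Het (log2 fold change -0.12 ± 0.036, adjusted p = 0.0033, 23 of 30 below). Ttn ran 3569, 4254 and 5053 in WT and 2683, 3889 and 5171 in Het (log2 fold change -0.13 ± 0.0421, adjusted p = 0.00754, 23 of 30 below). For Ttn the highest library of all was a Het one.

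**Figure D2:**
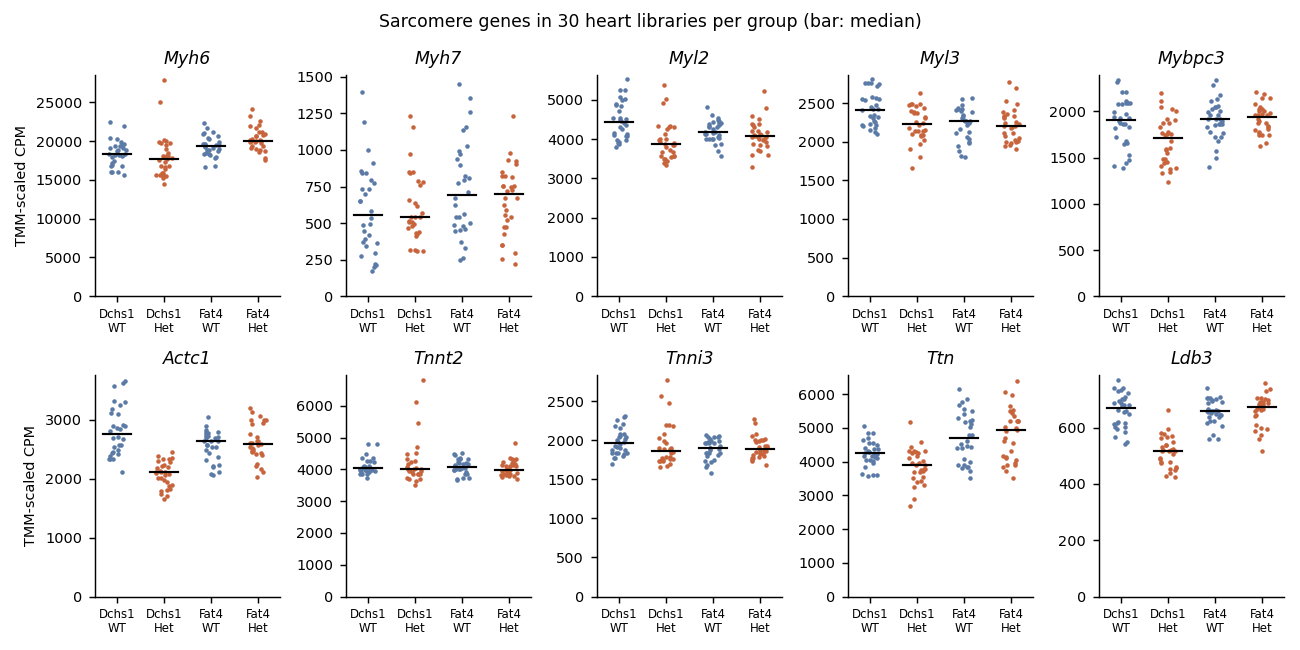
Scaled CPM of the 10 genes in each of 30 heart libraries per group (WT and Het of both lines), with a bar at the median. The Dchs1 Het libraries lie lowest for Actc1 and Ldb3, and a few Dchs1 Het libraries stand above all others for Tnnt2 and Myh6.

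The 4 remaining genes spread widely or hardly moved. Myh6, which alone took a median of 1.83% of all reads in the Dchs1 WT heart, ran 15624, 18314 and 22417 scaled CPM in WT and 14499, 17631 and 27907 in Het. Its log2 fold change was -0.03 with a 95% interval of -0.12 to 0.05. Tnnt2 ran 3716, 4029 and 4803 in WT and 3504, 3998 and 6806 in Het, with an interval of -0.04 to 0.13. The highest Het libraries of both genes lay above every WT library, while the medians stayed near those of WT. Tnni3 had an interval of -0.11 to 0.05. Myh7, the heavy chain of slow muscle and of the fetal ventricle, ran 175, 556 and 1398 in WT and 306, 541 and 1235 in Het, and its interval of -0.29 to 0.36 was the widest of the 10. Myh6 and Myh7 are neighbouring paralogs of near-identical sequence, so how reads were divided between them is uncertain. Myh7 also overlaps the long noncoding gene Mhrt over 3666 bases, Myh6 overlaps Cmtm5 over 1125 and Myl2 overlaps Ccdc63 over 5422, and whether counting used strand is not given in the sources used here.

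Markers of other cells are read against the same comparison, in which 26.1% of all genes were higher and 24.1% lower. Of 8 fibroblast markers 5 fell and 1 rose, with a summed TPM of 506 to 838 (median 667) in WT and 395 to 917 (median 674) in Het. Of 6 tested erythroid markers 4 fell and none rose, with a summed TPM of 1617 to 22372 (median 3550) in WT and 1107 to 17295 (median 2670) in Het. Of 8 endothelial markers 3 rose and 1 fell. Of 6 smooth muscle markers 1 fell, and of 6 macrophage markers 1 rose and 1 fell. The part of these cells in the result was not tested. Of 10 atrial markers 1 fell, and their sum ran 232 to 3211 TPM in WT and 191 to 3397 in Het, so the amount of atrial RNA varied widely within both groups. With the level of Myl7 as a covariate the 6 genes stayed lower, Actc1 at -0.45 and Ldb3 at -0.36. The labels give no sex, but every heart and lung library of both lines held RNA of Y chromosome genes. The lowest values were 8.30 TPM for Ddx3y and 8.13 for Eif2s3y. Xist, from the inactive X chromosome of females, reached at most 0.316 TPM, so these libraries have the pattern of male mice.

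In the Fat4 heart none of the 10 genes passed the test, in a comparison that called 1.6% of 13213 genes, 0.969% as higher and 0.628% as lower (edgeR). Without adjustment 2276 genes had a p below 0.05, and 1 of the 10, Myh6, was among them. Across 10 alternative settings, DESeq2 included, none of the 10 was called. Actc1 ran 2056, 2637 and 3046 scaled CPM in WT and 2020, 2578 and 3189 in Het, a log2 fold change of 0.03 with a 95% interval of -0.05 to 0.11. Ldb3 ran 561, 659 and 739.5 in WT and 517, 674 and 759 in Het, with an interval of -0.05 to 0.07. For both genes WT and Het overlapped over almost their whole ranges. Myh6 had a log2 fold change of 0.07 ± 0.0265 (adjusted p = 0.154, edgeR), with 22 of 30 Het libraries above the WT median. Myh7 again had the widest interval, -0.46 to 0.14. The intervals of Myl2, Myl3, Tnnt2, Tnni3 and Mybpc3 lay within -0.09 and 0.08, and that of Ttn was -0.09 to 0.14.

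The difference between the 2 lines was tested in 1 fit over all 120 heart libraries, as the Dchs1 effect minus the Fat4 effect. It called 25.5% of 13623 genes (12.9% higher, 12.6% lower) and 4 of the 10, all with a more negative effect in the Dchs1 line. Actc1 differed by -0.47 ± 0.0636 (adjusted p = 1.04e-08, edgeR) and Ldb3 by -0.38 ± 0.0483 (adjusted p = 2.80e-09). Myl2 differed by -0.15 ± 0.0523 (adjusted p = 0.0229). Mybpc3 differed by -0.18 ± 0.0672 (adjusted p = 0.0398), a call that 3 of 7 alternatives lost, with adjusted p of 0.0513 to 0.0727. Myl3 at -0.13 and Ttn at -0.16 did not pass (adjusted p = 0.0581 and 0.0941), and they passed only with the run of library numbers as a covariate (0.0460 and 0.0229). Line and any difference in how the 2 lines were bred, dissected or sequenced cannot be told apart.

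**Figure D3:**
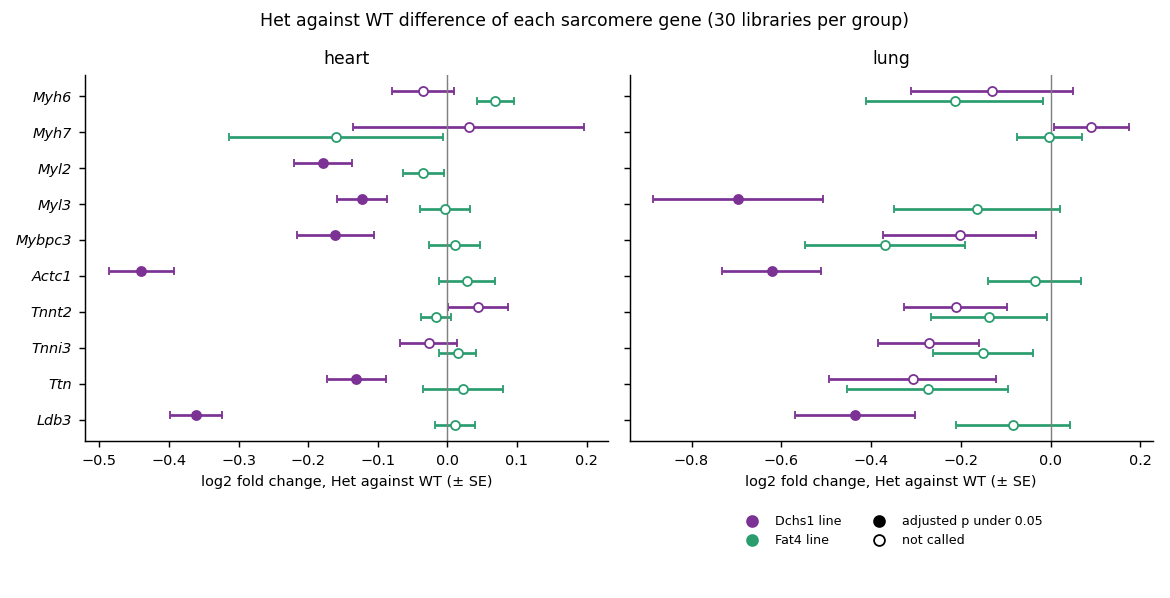
Log2 fold change of Het against WT (± SE) for the 10 genes in heart and lung of both lines, 30 libraries per group, with filled points for adjusted p below 0.05. In heart the Dchs1 points of Actc1 (-0.44) and Ldb3 (-0.36) lie farthest from 0. The Fat4 points sit close to it except that of Myh7, at -0.16 ± 0.154 and not called. Myl2 was not tested in lung.

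Other sarcomere genes were counted from lists. Of 14 further thick filament and M band genes 8 fell in the Dchs1 heart and none rose. Myh7b, a myosin heavy chain gene that hosts a microRNA, fell by 1.47 ± 0.156 on the log2 scale (adjusted p = 9.98e-12, edgeR), from a mean of 33.5 to 12.1 scaled CPM. Mybpc2, the fast muscle form of the myosin-binding protein, had a log2 fold change of -0.53, Smyd1, a methyltransferase that works with the myosin chaperone, -0.38, and the M band linker Obsl1 -0.28. The myosin chaperone Unc45b was lower in both lines, at -0.22 in the Dchs1 heart and -0.09 ± 0.0216 in the Fat4 heart (adjusted p = 0.0242). It was the 1 gene of this list that was called in the Fat4 heart.

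Of 12 tested thin filament genes 7 fell and 2 rose in the Dchs1 heart. The actin filament elongation factors of the leiomodin family moved in opposite directions. Lmod3, the form better known from skeletal muscle, fell by 0.82 ± 0.117 (adjusted p = 3.19e-08, edgeR), from 37.5 to 21.2 scaled CPM on average. Lmod2, the main heart form, rose by 0.51 ± 0.0939 (adjusted p = 6.10e-06), from 505 to 722, in 29 of 30 Het libraries above the WT median. The slow skeletal troponin Tnnt1 rose by 0.49 and the actin-binding gene Cap2 fell by 0.20. None of the 12 was called in the Fat4 heart.

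Of 24 Z disc and titin-linked genes 11 fell and 5 rose in the Dchs1 heart, with a median of -0.07. Fhl2, a LIM protein bound to titin, fell by 0.85 ± 0.0815 (adjusted p = 4.34e-13, edgeR), from 426 to 236 scaled CPM. Jph2, which holds the calcium store against the surface membrane, had a log2 fold change of -0.67, the intercalated disc gene Xirp2 -0.56 and the chaperone Cryab -0.29. Pdlim3 was called in both hearts, higher by 0.50 in the Dchs1 line and by 0.26 ± 0.0637 in the Fat4 line (adjusted p = 0.0283). Of 16 tested calcium handling genes 14 fell and none rose, with a median of -0.30, as far as Casq1 at -1.47 and, at higher level, Casq2 at -0.60 and Asph at -0.58, genes of the calcium store and its release unit. Of 20 cardiac transcription factors 10 fell and 1 rose. The 4 with the smallest p were Esrra, a regulator of mitochondrial genes, at -0.23, Mef2c at -0.27, Tbx20 at -0.33 and Prdm16 at -0.27. In the Fat4 heart none of the calcium handling genes and transcription factors was called. These lists are not independent of one another or of the 10 genes, and each count stands beside the 24.1% of all genes that were lower.

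Of 9 tested genes of the fetal and stress programme, whose rise marks a loaded heart, 2 rose and 2 fell in the Dchs1 heart. Over all genes in this comparison 26.1% were higher and 24.1% lower. Ccn2, a matrix protein induced by mechanical stress, rose by 1.08 ± 0.17 (adjusted p = 2.87e-07, edgeR) and Rcan1, a target of calcineurin, by 0.28. Skeletal actin Acta1 fell by 0.21 ± 0.0793 (adjusted p = 0.0246) and Xirp2 as above. Nppa, the atrial natriuretic peptide gene, had a log2 fold change of 0.26 ± 0.251 and was not called. Of 6 tested skeletal muscle markers 2 fell, Mybpc2 and Cacna1s (-0.34), and Myh2 and Tnni2 were not called. Of the atrial markers Kcnj3 fell (-0.28), and Kcna5 and Bmp10 were not called.

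Ratios between an adult and a fetal or atrial partner were compared in each heart library, with 10 permutation tests (2-sided, 100000 permutations), and none passed after Benjamini-Hochberg adjustment. The mean log2 ratio of Actc1 to Acta1 was 4.10 ± 0.282 (SD, n = 30) in Dchs1 WT and 3.89 ± 0.324 (SD, n = 30) in Het, a difference of -0.21 (p = 0.0106, adjusted p = 0.106). In the Dchs1 line the ratio of Myh7 to Myh6 averaged -5.14 ± 0.806 in WT and -4.97 ± 0.475 in Het (difference 0.17, adjusted p = 0.645). In the Fat4 line it averaged -4.86 ± 0.690 and -5.05 ± 0.612 (difference -0.19, adjusted p = 0.645). The ratio of Myl2 to its atrial partner Myl7 ran from 4.51 to 11.25 in Dchs1 WT and from 4.12 to 12.13 in Het, so that some hearts of both groups held almost no Myl7. In the Fat4 line this ratio averaged 0.79 higher in Het (adjusted p = 0.306), and that of Myl3 to Myl4 also 0.79 higher (adjusted p = 0.306).

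The spread between hearts differed among the genes. Myh7 had a biological coefficient of variation, the relative spread beyond counting noise, of 35.6% to 48.7% over the 4 heart groups. The other 9 genes lay between 7.12% and 15.7%, and the median over all genes was 9.68% to 12.2%. The hearts thus differed in Myh7 by more than in any of the other 9 genes, in WT as in Het.

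Within each heart group the levels of the 10 genes were compared from library to library. Of the 45 pairs in each of 4 groups (180 tests), 25 passed in Dchs1 WT, 20 in Dchs1 Het, 16 in Fat4 WT and 20 in Fat4 Het by permutation with Benjamini-Hochberg adjustment, and with Spearman's rho 27, 21, 18 and 23 did. By Pearson's r 24, 19, 12 and 18 of these were positive, and 1, 1, 4 and 2 negative. The median Pearson's r over the 45 pairs was 0.50, 0.34, 0.23 and 0.33 in that order. The scaled CPM of 2 genes share the library and its scaling factor. Myl2 and Tnni3 were correlated in all 4 groups, with r of 0.68 to 0.90 (adjusted permutation p of at most 0.000164) and rho of 0.73 to 0.89 (at most 0.00012). Without the 2 libraries farthest from the median, r was 0.60 to 0.89. Myl2 and Myl3 gave r of 0.46 to 0.91 (adjusted permutation p of at most 0.0279), rho of 0.67 to 0.89 (at most 0.000514) and 0.65 to 0.90 without those libraries. Myh6 and Ldb3 gave r of 0.55 to 0.69 (adjusted permutation p of at most 0.00469), rho of 0.43 to 0.71 (at most 0.0408) and 0.41 to 0.74 without those libraries.

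Ttn had a negative median r with Tnnt2, Myl3, Tnni3 and Myl2. With Myl3 it had r of -0.53 to -0.11, rho of -0.49 to -0.04 and r of -0.44 to -0.13 without 2 libraries, and 3 of 4 groups passed (adjusted permutation p from 0.00887 to 0.678). With Tnnt2 it had r of -0.58 to 0.04, rho of -0.56 to -0.22 and r of -0.50 to -0.34 without 2 libraries, and 2 groups passed (adjusted permutation p from 0.00289 to 0.861). With Tnni3 it had r of -0.61 to -0.17, rho of -0.56 to -0.15 and r of -0.58 to -0.16 without 2 libraries, and 1 group passed (adjusted permutation p from 0.00135 to 0.484). With Myl2 it had r of -0.32 to -0.08, rho of -0.34 to -0.04 and r of -0.26 to -0.05 without 2 libraries, and no group passed (adjusted permutation p from 0.148 to 0.755). Actc1 and Myh7 had r of -0.52 to -0.04, rho of -0.44 to -0.11 and r of -0.46 to -0.03 without 2 libraries, with 2 groups past the threshold by r and 1 by rho (adjusted permutation p from 0.00919 to 0.878). Averaged over the other 9 genes, Myl2 had the highest mean r at 0.46 and Ttn the lowest at -0.02.

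**Figure D4:**
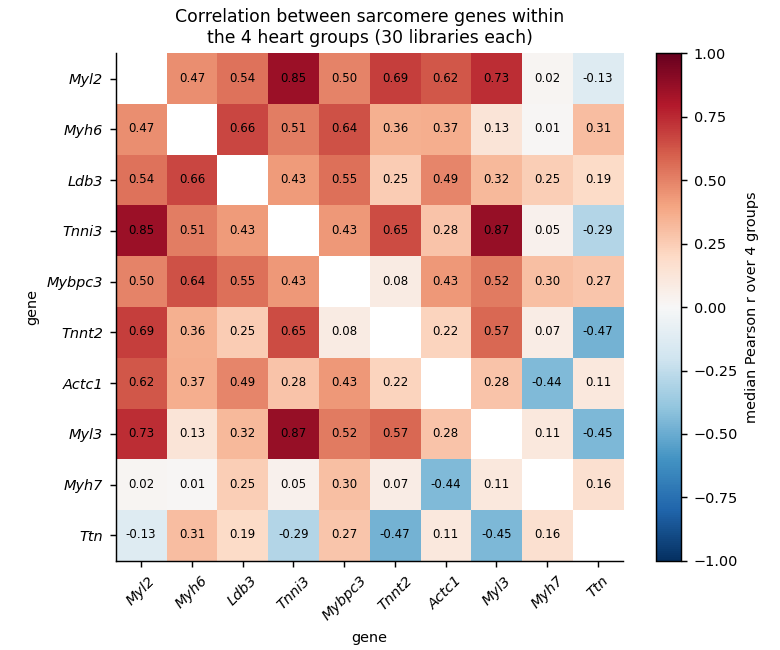
Median Pearson's r over the 4 heart groups (30 libraries each) for each pair of the 10 genes. The 4 highest medians are those of Myl3 with Tnni3 (0.87) and of Myl2 with Tnni3 (0.85), Myl3 (0.73) and Tnnt2 (0.69), and all blue cells are in the rows of Ttn and Myh7.

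Of 7305 other genes of at least 10 CPM, ranked by mean r with the 10 genes over the 120 heart libraries centred within group, the most alike were Hspb6 (0.52), Tnnc1 (0.52), Acat1 (0.51), Idh3b (0.51), Atp5pb (0.51), Fkbp3 (0.48), Pmpcb (0.48) and Mb (0.48). Tnnc1 is the calcium-binding troponin subunit, Mb is myoglobin, Hspb6 is a small heat shock protein of muscle, and Acat1, Idh3b, Atp5pb and Pmpcb encode mitochondrial proteins. Mb followed Myl2 at r = 0.92. The most opposite were Tgfbr2 (-0.43), a receptor for TGF-beta, Atl3 (-0.40), Arrb1 (-0.39) and Edem1 (-0.39). In the Dchs1 heart Hspb6 fell by 0.29, Acat1 by 0.09 and Mb by 0.10, and Tgfbr2 rose by 0.25, all past the threshold. Tnnc1, at -0.09 (adjusted p = 0.0612, edgeR), did not pass. Nor did Idh3b, Atp5pb, Fkbp3, Pmpcb, Atl3, Arrb1 and Edem1, in a comparison that called 50.2% of all genes.

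In WT lung 9 of the 10 genes were measurable, at lower levels than in heart and in another order, and Myl2 was almost absent. Actc1 had a median of 101 TPM (31.6 to 215), Tnnt2 98.6 (15.1 to 180), Myh6 63.5 (4.21 to 157) and Tnni3 58.8 (13.5 to 93.1) over 60 libraries, with overlapping ranges. Myh7 at 6.36, Ldb3 at 6.00, Myl3 at 2.79 and Mybpc3 at 2.38 followed, and their ranges also overlapped one another. Ttn was at 0.885 TPM and Myl2 at 0.153. The atrial light chains Myl7 and Myl4 were at 102 and 70.5 TPM, Myl7 near the level of Actc1 and Tnnt2 and Myl4 below it and above that of Myh6.

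The ratio of heart to lung medians separated the genes. It was 2.94 for Myl7 and 3.79 for Myl4. It was between 22.1 and 80.9 for Myh7, Actc1, Tnnt2, Tnni3, Ldb3, Myh6 and Ttn, 274 for Mybpc3, 1375 for Myl3 and 64632 for Myl2. The Myl2 ratio rests on 91 reads over 60 lung libraries, 18 of which had none, and is imprecise for that reason. The ventricular light chains Myl2 and Myl3 were thus the most heart-restricted of the 10 against lung. The skeletal muscle list was not absent from lung. Its 13 genes summed to a median of 22.1 TPM in Dchs1 WT lung and 19.0 in Fat4 WT lung, against 15.0 and 14.9 in the WT hearts. Over WT and Het together, the fast heavy chain Myh4 had a lung median of 0 in both lines and Myh1 of 0.0331 and 0.0320 TPM. The fast troponin subunits Tnnt3 (9.01 and 8.44 TPM) and Tnni2 (3.40 and 3.10) and the light chain Mylpf (3.28 and 3.10) had higher medians in lung than in heart; Tnnt3 and Mylpf are named after their values were seen. The part of such muscle in the lung levels was not tested.

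Lung libraries with more Myl7 had more of 8 of the 10 genes in every group. In 40 tests on log2(CPM + 0.1), the 8 passed in all 4 groups of 30 by permutation with Benjamini-Hochberg adjustment, and Myh7 and Myl2 passed in none. For Tnni3, r with Myl7 was 0.78 to 0.97 and rho 0.76 to 0.96, with adjusted permutation p of 1.60e-05 and 1.82e-05 in all 4 groups, which come from the smallest p (1e-05) that 100000 permutations give. Mybpc3 had r of 0.83 to 0.94 and rho of 0.75 to 0.89, with the same p-values. Actc1 was the loosest of the 8 without extremes, at r of 0.62 to 0.82 (adjusted permutation p of at most 0.000372), rho of 0.56 to 0.83 (at most 0.00187) and r of 0.52 to 0.76 once the 2 libraries farthest from the median of Myl7 were left out. The 8 genes held r of 0.52 or more in each group without those 2 libraries. Myh7 had r of -0.32 to -0.02 and rho of -0.20 to 0.11 (adjusted permutation p from 0.102 to 0.894), and in lung it was the least variable of the 9 tested genes, with a coefficient of variation of 18.3% to 24.6% against 24.6% to 54.6% for the others.

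**Figure D5:**
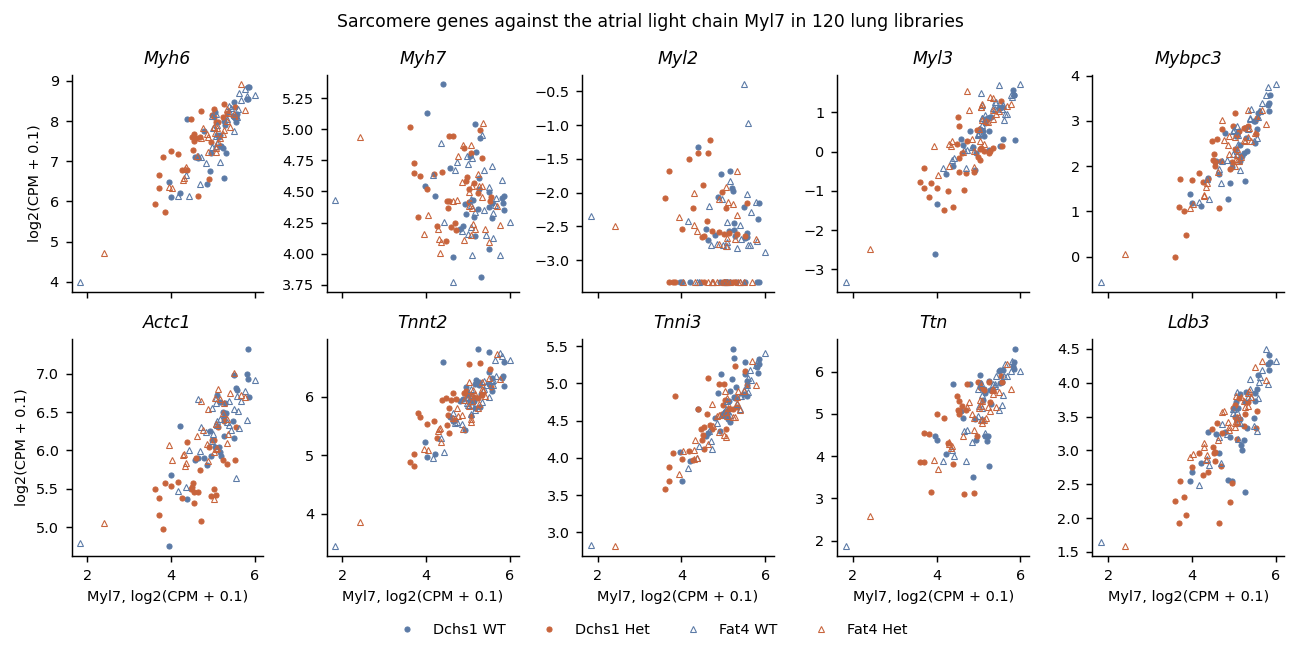
Log2(CPM + 0.1) of each of the 10 genes against that of Myl7 in 120 lung libraries, with filled circles for the Dchs1 line, open triangles for the Fat4 line, blue for WT and orange for Het. Of the 10 genes 8 climb with Myl7, whereas Myh7 and Myl2 do not.

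In the Dchs1 lung 3 of the 9 tested genes fell and none rose, in a comparison that called 20% of 15069 genes, 9.6% as higher and 10.4% as lower (edgeR). Myl2 was too low to be tested. Actc1 ran 27.8, 75.2 and 151 scaled CPM in WT and 33.7, 48.0 and 81.7 in Het, a log2 fold change of -0.62 ± 0.11 (adjusted p = 1.85e-05), 27 of 30 Het libraries lying under the median of WT. The lowest library of all was nonetheless a WT one. Myl3 ran 0.0666, 1.28 and 2.74 in WT and 0.257, 0.806 and 2.29 in Het (-0.70 ± 0.189, adjusted p = 0.00489, 26 of 30 below). Ldb3 ran 5.65, 10.6 and 19.9 in WT and 3.75, 7.76 and 13.4 in Het (-0.44 ± 0.134, adjusted p = 0.0137, 23 of 30 below). Both genes overlapped widely between WT and Het. The other 6, from -0.31 for Ttn to 0.09 for Myh7, did not pass. Tnni3, at -0.27 ± 0.113 (adjusted p = 0.0821), was called under 5 of 11 alternatives.

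The atrial light chains moved in the same direction in these lungs. Myl7 ran 15.3, 36.3 and 55.4 scaled CPM in WT and 11.8, 24.3 and 47.2 in Het (log2 fold change -0.44 ± 0.129, adjusted p = 0.0102, edgeR), and Myl4 had a log2 fold change of -0.48 ± 0.12 (adjusted p = 0.00189). Of 9 tested atrial markers 2 fell and none rose, their sum ran 149 to 586 TPM (median 280) in WT and 125 to 388 (median 230) in Het, and Bmp10 was at 0 in all these libraries. With the level of Myl7 as a covariate, Actc1 stayed lower at -0.33 (adjusted p = 0.00704), whereas Ldb3 at -0.09 (adjusted p = 0.677) and Myl3 at -0.21 (adjusted p = 0.477) were no longer called. Of 8 fibroblast markers 6 fell, with sums of 594 to 1283 TPM in WT and 521 to 969 in Het. All 6 markers of T and B cells fell, with sums of 12.4 to 252 and 14.9 to 142 TPM. Of 7 tested skeletal muscle markers 2 fell, Tnni2 (-0.61, adjusted p = 0.00138, edgeR) and Atp2a1 (-0.64, adjusted p = 0.0491, named after its value was seen), and none rose. The 13 skeletal markers summed to 14.8 to 31.1 TPM (median 22.1) in WT and 13.04 to 24.3 (median 17.2) in Het. Their part in the result was not tested. Without the 5 libraries that stood apart, Actc1 was at -0.64, Myl3 at -0.65 and Ldb3 at -0.41, all still called. In the longest run of library numbers they were at -0.72, -0.63 and -0.47.

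In the Fat4 lung none of the 9 tested genes passed, in a comparison that called 0.136% of 15415 genes, 0.11% as higher and 0.0259% as lower (edgeR). Without adjustment 1637 genes had a p below 0.05, 1 of them among the 9: Mybpc3, at -0.37 ± 0.178 (adjusted p = 0.453). Under 8 alternatives, DESeq2 included (6 for Ttn), none of the 9 was called. All 9 fold changes were negative, with a median of -0.15 against -0.001 over all genes. They are not independent, since all of the 9 but Myh7 rose with Myl7 from library to library. With the level of Myl7 as a covariate Myl3, Ldb3, Myh6, Actc1 and Tnnt2 turned positive, and the others stayed negative. Actc1 ran 28.8, 81.0 and 118 scaled CPM in WT and 33.6, 72.3 and 129 in Het, with a 95% interval of the log2 fold change of -0.24 to 0.17. The fold changes of Myl7 (-0.21) and Myl4 (-0.29) were also negative and not called.

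Kidney and liver held almost none of these transcripts. In WT kidney the highest median was 0.548 TPM, for Ldb3, and in WT liver 0.524, for Tnnt2. Myl2 gave 8 reads over 60 WT kidney libraries, 54 of which had none, and 3 reads over 60 WT liver libraries, 57 of which had none. A single kidney library labelled Fat4 Het, singled out after its values were seen, carried 0.00698% of its reads in the 10 genes, against a group median of 0.000499%. It had Myl2 at 11.6 TPM (97 reads), Actc1 at 7.96 and Myh6 at 7.68, where the highest of the other 29 libraries had 0.158, 0.194 and 0.397. Its Myl7, at 2.81 TPM, was near the 2.73 of the highest of the others. How these reads came into that library was not tested, and no comparison here uses it.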

How the data were processed

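Gene tables of both lines were used as deposited by the authors, 239 and 240 columns, each matched to 1 sample by its title (0 columns unmatched). The authors' estimated counts per gene (15.5% and 15.7% of values not whole) were rounded; the authors' TPM were used for levels between genes. Per the submitters' processing notes, bcl2fastq 2.17, FastQC and the GRCm38 build were used; the aligner and counter: not given in the sources used here. Libraries were single-end and strand-specific from poly(A) RNA, per the labels' protocols, which give conflicting read lengths.

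Het and WT were compared within tissue and line with edgeR 4.0.16 (filterByExpr, minimum count 10; TMM; quasi-likelihood test; threshold 0.05, Benjamini-Hochberg over all tested genes), R 4.3.3. Alternatives used DESeq2 1.42.0, limma 3.58.1 on log2(TPM + 1), sva 3.50.0, library-number runs split at gaps over 5, and Myl7 as covariate. The fits were also run on simulated independent counts with few changed genes and no runs of libraries. That setting differs from the Dchs1 comparisons, so it cannot measure false calls in them. Ratios and correlations used 2-sided permutations (SciPy 1.17.1). Intervals are 95%. Gene names came from RefSeq (24375 of 24475 IDs).

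Named were the 10 genes, ratio partners, Dchs1, Fat4, up to 4 genes of smallest p per list in the Dchs1 heart, genes called in the Fat4 heart, and the 8 most alike and 4 most opposite genes. Members and lists were chosen with earlier results of these data known. No pair of heart libraries, or of lung libraries, from the same line and genotype agreed within sampling noise (lowest chi-square per gene 3.48). Other pairs, and all kidney and liver libraries, were not checked in this way. Depth over all libraries was 10720364 to 32282525 reads.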

Additional observations from a re-analysis of the deposited data

Results flagged for a closer look

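The Het effect on 4 of the 10 genes differed between the Dchs1 and Fat4 hearts by the test of the difference itself (edgeR, 30 libraries per group): Actc1 by -0.47, Ldb3 by -0.38, Mybpc3 by -0.18 and Myl2 by -0.15 on the log2 scale, with adjusted p of 1.04e-08, 2.80e-09, 0.0398 and 0.0229. In the Fat4 heart alone their log2 fold changes were 0.03, 0.01, 0.01 and -0.03. The same test called 25.5% of 13623 genes, 12.6% as lower. The Mybpc3 call held under 4 of 7 alternatives. Line and any difference in breeding, dissection or sequencing cannot be told apart.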

How the results depend on the processing

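Of 469 values recomputed for single genes, ratios and counts of calls under the alternatives, 431 kept direction and side of the threshold, 23 changed sign, 5 lost a call and 10 gained one. The 6 lower genes of the Dchs1 heart stayed called under all 9 alternatives, Actc1 between -0.45 and -0.43 and Ldb3 between -0.44 and -0.36. No paired analysis was made because the labels do not give the litter or the animal of each library. Counts of calls over all genes moved both where few genes were called and in the Dchs1 lung, where many were. In the Fat4 heart (211) they were 29 with Myl7 as a covariate, 132 with limma (87.1% higher, against 60.7%), 95 with no filter and 102 without the outlying Het library. In the Dchs1 lung (3018) they were 4623 in the longest run of library numbers, 4711 with the run as a covariate and 7567 with surrogate variables, and limma gave 26.1% higher against 47.9%. In the Fat4 lung (21) they were 60 with DESeq2, 10 with limma at either pseudocount and 62 with surrogate variables. For the difference between lines (3475), limma gave 2315. The cause was not tested.

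Every change of sign was in a gene or ratio that had not been called. In the Dchs1 heart Myh7 went to -0.00524 with surrogate variables and the ratio of Tnni3 to Tnni1 to -0.0397 in the longest run. In the Fat4 heart Myl3 went to 0.0116 with limma, 0.00679 in the longest run and 0.00472 with the run as a covariate, Tnni3 to -0.00471 and Mybpc3 to -0.0191 with the Myl7 covariate, and Mybpc3 to -0.0162 and Ttn to -0.0151 with surrogate variables. With the Myl7 covariate, the Dchs1 lung gave Myh6 at 0.36, Mybpc3 at 0.29, Tnnt2 at 0.0788, Ttn at 0.0756 and Tnni3 at 0.0454, and the Fat4 lung Myl3 at 0.11, Ldb3 at 0.0710, Myh6 at 0.0649, Actc1 at 0.0529 and Tnnt2 at 0.0350. With surrogate variables the Fat4 lung gave Actc1 at 0.17, Ldb3 at 0.12, Myl3 at 0.0886 and Myh6 at 0.0326. The Myl7 covariate also moved the Dchs1 lung lists, calcium handling to 1 higher and 3 lower and Z disc to 6 higher and none lower. Calls gained were Myh6 (-0.06) and Tnni3 (-0.04) in the Dchs1 heart with surrogate variables, Ttn (-0.32) in the Dchs1 lung with surrogate variables, and those of Tnni3 in the Dchs1 lung and of Myl3 and Ttn between lines given above. No library of the Dchs1 heart or Fat4 lung stood apart, and the Fat4 lung has 1 run of numbers, so those alternatives gave no value there. Low levels limit Myl2 and Myl3 in lung. Over 60 WT lung libraries Myl2 gave 91 reads, with none in 18 libraries. Myl3 gave 1759 reads, with none in 1 library.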
